A study of Homo sapiens with 24 samples.

Results

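The genes described here are 37 interferon-stimulated genes and sensors of foreign nucleic acid, taken by symbol from a written list. Each symbol occurred once among the 48162 genes measured, so all 37 were found. They were followed in 24 RNA-seq libraries from a pair of immortalised human pancreas lines, hTERT-HPNE (called HPNE here, made with the telomerase gene) and HPDE-H6c7 (called HPDE here, a duct epithelial line), both labelled as normal pancreas cells. Both lines were grown in keratinocyte serum-free medium with 1% penicillin-streptomycin. For 24 h the wells then received fresh serum-free medium (untreated), the residual medium left when extracellular vesicles (EV) had been isolated (the study's negative control), or 1e10 EV per well made by the cancer lines PANC-1 or PPCL-68. Each of the 8 groups had 3 libraries, labelled as biological triplicates, and each line is a single immortalised line. The comparisons address what vesicles of pancreatic cancer cells do to normal pancreas cells.

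Interferons are secreted proteins that cells release when sensors meet viral or displaced nucleic acid. They bind receptors that activate the kinases JAK1 and TYK2, and these phosphorylate STAT2, which acts with IRF9 in a complex that binds a DNA element called the interferon-stimulated response element (ISRE). The genes switched on this way include the sensors themselves (IFIH1, which encodes MDA5, and DDX58, which encodes RIG-I), RNA-binding IFIT proteins, enzymes of the OAS family, antiviral membrane proteins and the ubiquitin-like modifier ISG15. Interferon gamma acts on another element, GAS, as at IRF1.

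Reads assigned to genes numbered 29874928 to 46490312 per HPNE library, and HPDE libraries had 29209142 to 42206773. Levels are given as FPKM, the reads of a gene scaled to its length and to the library total, so levels of different genes can be set side by side. Markers of mesenchyme (7 genes) summed to 9470 to 14900 FPKM in HPNE against 78.9 to 152 in HPDE, and markers of duct epithelium (9 genes) to 6.62 to 15.7 against 1450 to 3540. Mesenchymal genes were high and duct markers low in HPNE, and the reverse held in HPDE. The duct marker CFTR had at most 12 reads in any library. Leukocyte markers (7 genes), cells that also express these genes, summed to at most 1.19 FPKM in HPNE and 2.14 in HPDE. Markers of acinar cells, islet cells and endothelium summed to at most 0.2 FPKM. In each HPNE group 1 library lay 2.05 to 3.31 times farther from the other 2 than those lay from each other: untreated 3, residual medium 3, PANC-1 EV 1 and PPCL-68 EV 1. The corresponding ratios in HPDE were 1.08 to 1.24. The main HPNE counts are given with and without these 4 libraries. Leaving them out lowers the spread by construction, since they were picked for their distance.

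Promoters are shown for 5 genes that carry the results below: IFIT1 and BST2, which PPCL-68 EV lowered in HPDE, DDX60, which both EV raised in both lines, IRF1, which rose with both EV in HPNE, and XAF1, which rose in both lines. Each is 300 bases of GRCh38.p14 from RefSeq, 250 before and 50 after the gene's start, written 5′ to 3′ on the gene's strand: IFIT1 at chr10:89392373-89392672 (plus strand), BST2 at chr19:17405581-17405880 (minus strand), DDX60 at chr4:168318703-168319002 (minus strand), IRF1 at chr5:132490724-132491023 (minus strand) and XAF1 at chr17:6755796-6756095 (plus strand). Capitals mark the ISRE core, which is GAAA, any 2 bases and GAAA, searched on both strands (TTTC, 2 bases and TTTC on the other strand), and in IRF1 the GAS core TTCNNNGAA, which reads the same on both strands.
IFIT1: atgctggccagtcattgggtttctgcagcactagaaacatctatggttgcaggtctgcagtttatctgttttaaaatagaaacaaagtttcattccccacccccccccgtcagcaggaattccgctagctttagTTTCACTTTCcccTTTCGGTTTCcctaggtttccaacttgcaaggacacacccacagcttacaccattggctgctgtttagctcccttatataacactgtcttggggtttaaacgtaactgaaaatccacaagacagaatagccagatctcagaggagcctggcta
BST2: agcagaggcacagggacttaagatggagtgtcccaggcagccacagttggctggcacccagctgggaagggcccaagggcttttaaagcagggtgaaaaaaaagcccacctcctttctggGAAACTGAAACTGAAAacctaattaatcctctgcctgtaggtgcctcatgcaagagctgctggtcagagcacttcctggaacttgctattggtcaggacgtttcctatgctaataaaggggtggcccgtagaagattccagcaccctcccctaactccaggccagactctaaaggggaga
DDX60: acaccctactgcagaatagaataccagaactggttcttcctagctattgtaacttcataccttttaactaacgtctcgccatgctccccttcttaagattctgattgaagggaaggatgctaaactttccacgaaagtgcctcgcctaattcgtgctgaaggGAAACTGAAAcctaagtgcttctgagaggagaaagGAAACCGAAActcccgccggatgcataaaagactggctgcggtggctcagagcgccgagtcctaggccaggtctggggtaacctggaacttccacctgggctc
IRF1: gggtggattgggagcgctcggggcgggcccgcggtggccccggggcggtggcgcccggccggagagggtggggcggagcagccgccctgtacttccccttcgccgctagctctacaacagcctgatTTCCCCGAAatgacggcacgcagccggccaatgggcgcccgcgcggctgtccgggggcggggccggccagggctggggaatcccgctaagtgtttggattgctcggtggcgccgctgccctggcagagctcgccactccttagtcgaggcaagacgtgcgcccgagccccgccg
XAF1: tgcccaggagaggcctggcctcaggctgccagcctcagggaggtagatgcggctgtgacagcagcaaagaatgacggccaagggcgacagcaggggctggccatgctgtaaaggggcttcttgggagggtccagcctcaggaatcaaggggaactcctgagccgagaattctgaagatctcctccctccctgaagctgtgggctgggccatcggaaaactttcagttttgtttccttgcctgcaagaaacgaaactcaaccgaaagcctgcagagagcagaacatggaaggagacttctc
The cores lay at -116 and -103 from the start in IFIT1, at -130 and -124 in BST2, where they overlap, and at -88 and -53 in DDX60. The IRF1 window held the GAS core at -124 and no ISRE core, and the XAF1 window neither. BST2 also held 2 GAS cores, at -136, where it overlaps an ISRE core, and at -58, and DDX60 held 1 at -124. These are not marked. Of the 37 genes 29 had a RefSeq promoter entry, and 19 of the 29 (65.5%) held an ISRE core, against 1255 of 35116 promoters of the same length (3.57%). The GAS core was in 8 (27.6%) against 7.66% of all. Among the 24 with an entry that were higher after PANC-1 EV than after PPCL-68 EV in HPDE, 14 held an ISRE core, as did all 5 that were not called. Letters in these windows are a description and show no binding.

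Most of the genes stood far higher in HPDE than in HPNE, whatever the treatment. Over the 12 libraries of a line, 14 of 37 had a mean of at least 100 FPKM in HPDE and 1, IFITM3, had one in HPNE (323 ± 53.4 FPKM, SD, n = 12). A mean of at least 10 FPKM was reached by 34 in HPDE and 13 in HPNE. Among the 26 genes with a mean of at least 1 FPKM in HPNE itself, every HPDE library lay above every HPNE library for 21, as was the case for 29.8% of the 11503 genes with such a mean. The other 5, whose ranges overlapped, were the transcription factors STAT2 and IRF1, the membrane protein IFITM2, the apoptosis-linked XAF1 and the GTPase GBP2. The highest levels in HPDE were those of IFI6, a mitochondrial protein (1387 ± 212 FPKM), ISG15 (1286 ± 339), IFITM3 (892 ± 90.1) and BST2, which tethers budding virions (451 ± 116). IFI6 and ISG15 ranged over 1034 to 1703 and 761 to 1766 FPKM, ranges that pool the treatments. Within treatments, IFI6 lay above ISG15 in untreated HPDE (1034 to 1169 against 761 to 888 FPKM). It did so with residual medium too (1353 to 1629 against 1055 to 1282), and the ranges overlapped after either EV. In HPNE, IFITM3 was followed by IFITM2 (91.97 ± 22.4 FPKM), ISG15 (77.2 ± 28.8) and IFI6 (63.6 ± 29.0), whose ranges over all treatments overlapped one another. In untreated HPNE they were apart, at 113 to 118, 48.0 to 62.0 and 30.8 to 34.0 FPKM in that order.

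No gene was silent in HPNE, if silence means at most 3 reads in all 12 libraries. The nearest was RSAD2, the antiviral enzyme viperin, with 0 to 10 reads per HPNE library, more than 3 reads in 6 of 12, and a mean of 0.0298 FPKM against 82.1 in HPDE. Another 10 stayed under a mean of 1 FPKM in HPNE, the filter for testing in a line: IFI27, IFI44L, ISG20, MX2, OAS1, OAS3, OASL, IRF9, USP18 and HERC5. In HPDE all 37 passed that filter. IFI27 showed the contrast well, with 0.183 to 2.00 FPKM over HPNE libraries and 223 to 318 over HPDE libraries. OAS3, which makes the oligoadenylate messenger that activates RNase L, ranged over 0.179 to 2.69 FPKM in HPNE and 181 to 249.6 in HPDE.

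**Figure D1:**
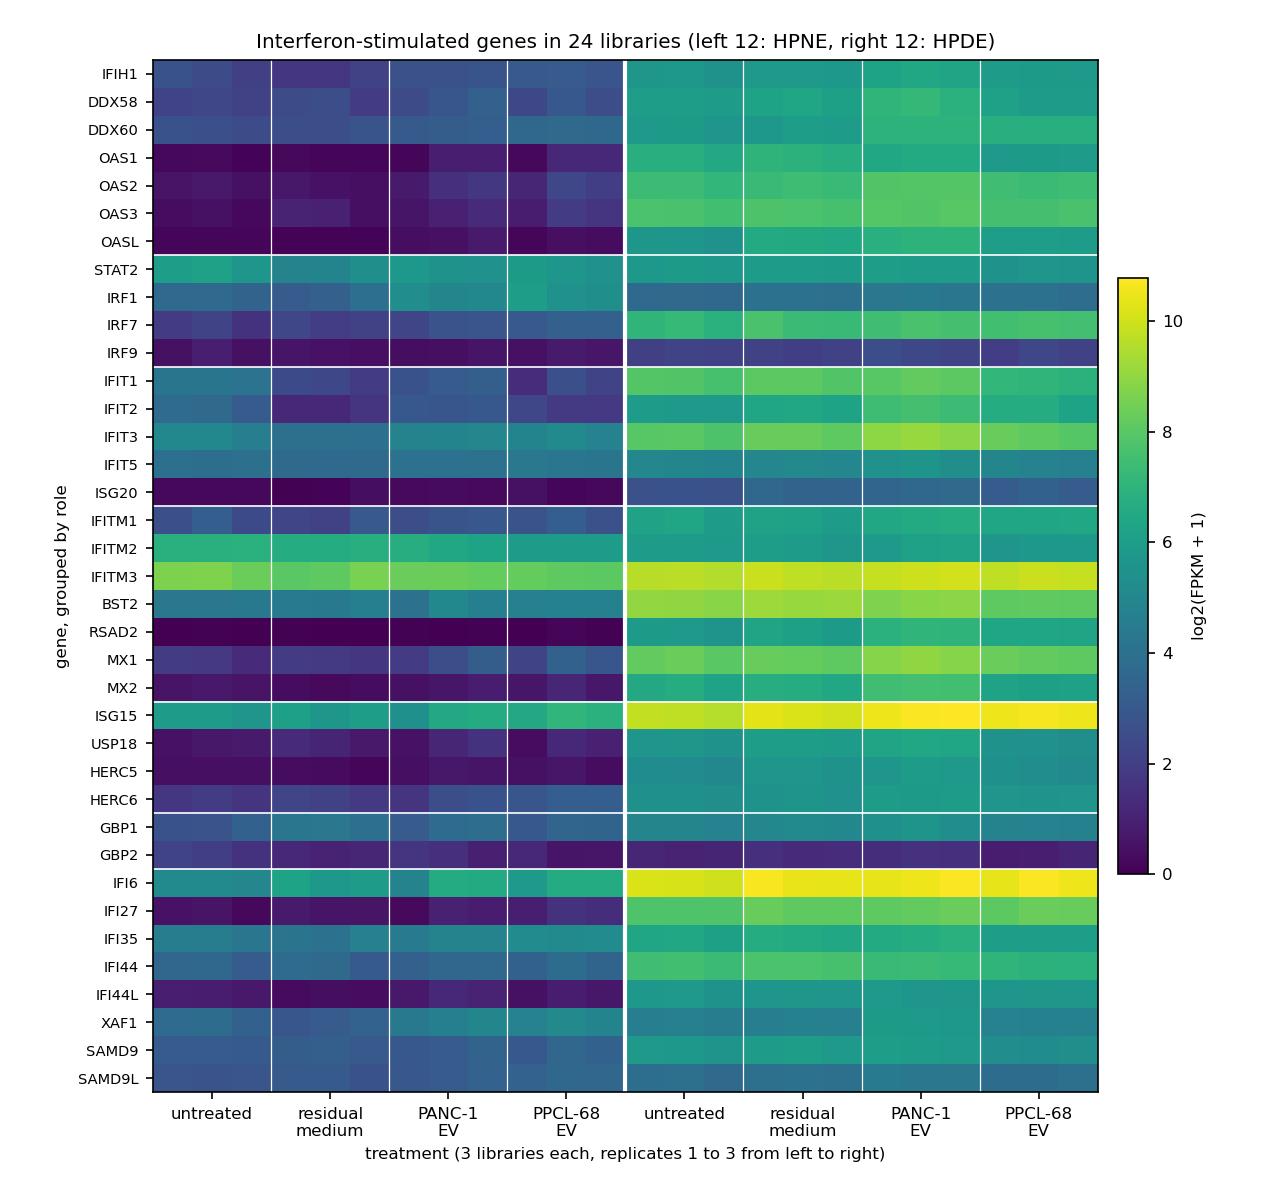
Heat map of log2(FPKM + 1) for the 37 genes (vertical axis, grouped by role) in the 24 libraries (horizontal axis, 3 per treatment, HPNE left and HPDE right). HPDE columns are brighter for nearly all genes, and STAT2, IRF1, IFITM2, XAF1 and GBP2 are the 5 whose ranges overlap between the lines.

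Untreated HPDE and untreated HPNE were compared in a limma fit of all 24 libraries on log2(FPKM + 1), with Benjamini-Hochberg adjustment over all genes tested and a threshold of 0.05, as in every test below. Of the 26 genes that passed the filter in HPNE itself, 22 were higher in HPDE, 2 lower (IFITM2 and GBP2) and 2 not called (STAT2 and IRF1), while 56.0% of all genes tested were called higher, 27.7% lower and 83.8% either way. The other 11 passed through their HPDE levels alone and had to differ. The shares of all genes are over 12377 genes, which include genes under the filter in HPNE, so the sets compared are not alike. STAT2 was called lower in HPDE without the 4 libraries (-0.30, adjusted p = 0.000393), which made 3 lower, and the count of lower genes over all 37 was also 3 with median-of-ratios size factors. Of all 12377 genes, 7168 were higher and 3703 lower without the 4 libraries, and 5398 and 4748 with size factors. The median difference over all genes was 0.38 on the log2 scale and 0.068 with those size factors. IRF1 differed by 0.087 (SE 0.16, adjusted p = 0.621), with 12.02, 12.4 and 11.4 FPKM in HPDE and 11.9, 11.8 and 9.88 in HPNE.

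Together the 37 genes held 1.185% ± 0.086 (SD, n = 3) of all gene reads in untreated HPDE libraries, 1.375% ± 0.076 with residual medium, 1.787% ± 0.061 after PANC-1 EV and 1.296% ± 0.029 after PPCL-68 EV. The 3 PANC-1 EV libraries, at 1.72% to 1.84%, lay above all 9 others. In HPNE the share was 0.126% ± 0.013 untreated, 0.104% ± 0.0084 with residual medium, 0.143% ± 0.012 after PANC-1 EV and 0.160% ± 0.0079 after PPCL-68 EV. Each HPNE library with EV lay above each library with residual medium, and the PANC-1 EV libraries overlapped the untreated ones.

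The vesicle sources differed from each other in HPDE. With PANC-1 EV 31 of the 37 genes were higher than after PPCL-68 EV and none was lower, where 25.2% of all 12223 genes tested were called higher, 24.9% lower and 50.1% either way. The median difference of the 37 was 0.49 on the log2(FPKM + 1) scale, and that of all genes tested was -0.0019. In bulk RNA, a change in level per cell and a change in the number of cells that express a gene cannot be told apart. Not called were IFI6, IFI27, IFI44L, IRF7, ISG15 and IFITM3, with differences of -0.015 to 0.13. Leaving out each library in turn gave 29 to 31 genes, all higher after PANC-1 EV.

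MX2, a dynamin-like GTPase that blocks viral capsids (chr21:42733870-42781317 in hg19, plus strand), differed most and is described for that reason, as is DDX58 below. Its level was 179, 190.0 and 181 FPKM after PANC-1 EV, 72.3, 69.7 and 70.9 after PPCL-68 EV and 104, 100.1 and 88.5 with residual medium. The 3 groups did not overlap, PANC-1 EV being highest and PPCL-68 EV lowest. The difference between the EV was 1.35 (SE 0.08, adjusted p = 1.39e-08). IFIT1, which binds RNA lacking the host cap methylation (chr10:91152303-91163745 in hg19, plus strand), had 251, 289.9 and 264 FPKM after PANC-1 EV, 141, 132 and 121 after PPCL-68 EV and 271, 270.2 and 233 with residual medium. Here the PANC-1 EV values overlapped those of residual medium, and the PPCL-68 EV values lay below both, with a difference between the EV of 1.03 (SE 0.081, adjusted p = 1.98e-07). DDX58, the RIG-I sensor of viral RNA ends (chr9:32455300-32526322 in hg19, minus strand), had 132, 143 and 119 FPKM after PANC-1 EV, 70.8, 60.8 and 60.5 after PPCL-68 EV and 74.7, 80.5 and 69.6 with residual medium. All PANC-1 EV libraries were high, and those of PPCL-68 EV overlapped residual medium. The difference between the EV was 1.03 (SE 0.075, adjusted p = 1.05e-07).

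**Figure D2:**
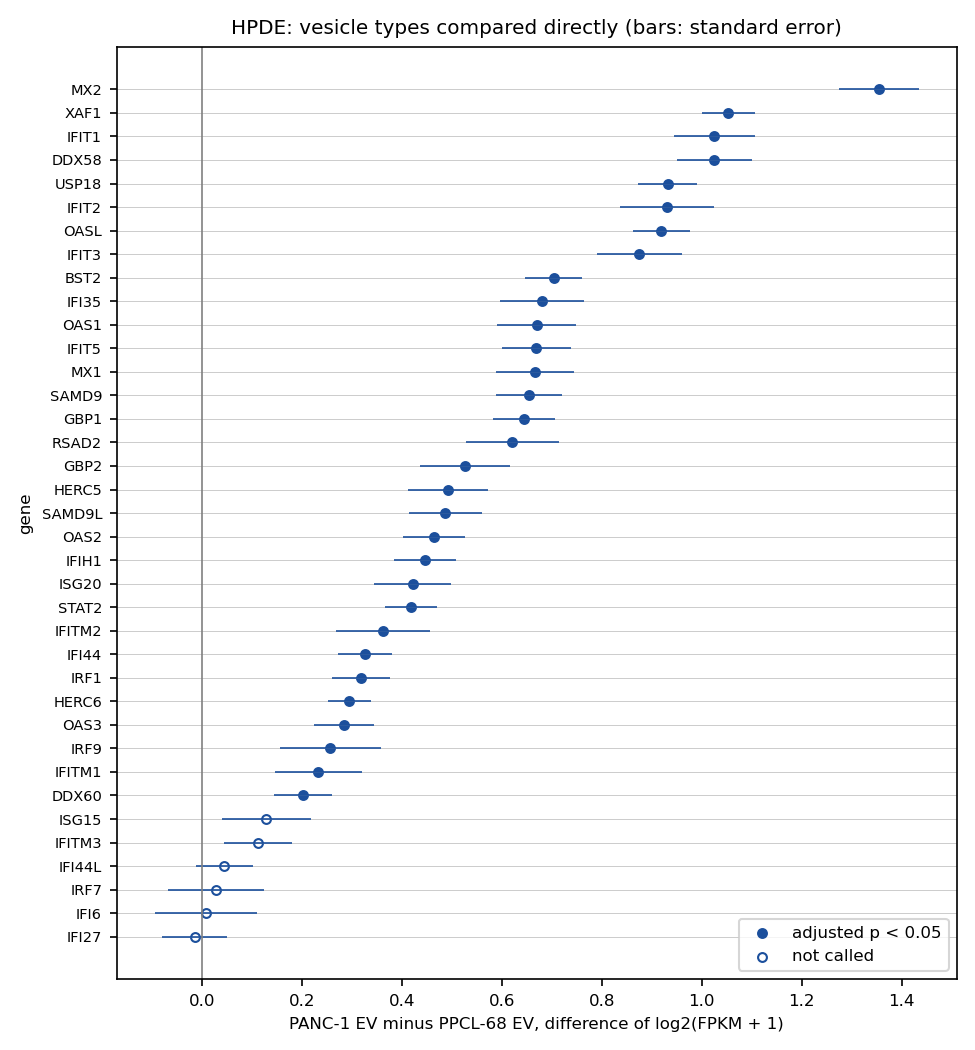
Difference in log2(FPKM + 1) between PANC-1 EV and PPCL-68 EV in HPDE (horizontal axis) for the 37 genes (vertical axis), with bars for the standard error and filled points where the adjusted p was under 0.05. The 31 filled points are all above 0, from 0.20 for DDX60 to 1.35 for MX2.

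Against residual medium, PANC-1 EV raised 22 of the 37 genes in HPDE and lowered 3, while 12 were not called. Over all genes tested 63.3% were called, 28.2% higher and 35.1% lower, so the number called was near the background, while 22 of the 25 genes called lay on the higher side. The median difference of the 37 was 0.32, and that of all genes was -0.041. By role, 6 of the 7 sensors rose (OAS1 fell), as did 3 of the 5 RNA-binding or RNA-degrading effectors, 5 of the 7 membrane and virion effectors, 3 of the 4 genes of the ISG15 system, 2 of the 4 transcription factors and 1 of the 2 guanylate-binding proteins, GBP1. Of the 8 other genes 2 rose (XAF1 and SAMD9L), 1 fell (IFI44) and 5 were not called.

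XAF1, an interferon-induced protein tied to apoptosis (chr17:6658766-6678966 in hg19, plus strand), had 57.3, 55.2 and 52.5 FPKM after PANC-1 EV and 23.4, 25.9 and 25.1 with residual medium. The groups were far apart, and the difference was 1.12 (SE 0.053, adjusted p = 4.75e-10). With PPCL-68 EV it had 26.5, 26.0 and 25.4 FPKM, close to residual medium at a difference of 0.066 (SE 0.053, adjusted p = 0.285). IFIT2, a partner of IFIT1 and IFIT3 in binding RNA (chr10:91061712-91069033 in hg19, plus strand), had 170.2, 193 and 168 FPKM after PANC-1 EV and 82.2, 84.9 and 75.6 with residual medium, a difference of 1.12 (SE 0.094, adjusted p = 1.65e-07). Its levels after PPCL-68 EV, 102, 101 and 76.0 FPKM, overlapped those of residual medium. DDX60, a helicase reported to aid RIG-I (chr4:169137444-169239958 in hg19, minus strand), rose with both EV. It had 126, 125 and 124 FPKM after PANC-1 EV, 109.5, 109.6 and 107 after PPCL-68 EV and 53.1, 63.0 and 59.8 with residual medium. Both EV groups lay above residual medium, by 1.09 (SE 0.058, adjusted p = 1.52e-09) and 0.88 (SE 0.058, adjusted p = 7.7e-09), and the sources differed by only 0.20.

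The remaining genes raised by PANC-1 EV in HPDE differed from residual medium by 0.16 (IFITM3) to 0.90 (MX2). RSAD2 rose by 0.89, IFIT3 by 0.77, MX1 by 0.66, OAS2 by 0.56, IFIH1 by 0.52 and ISG15 by 0.50. The 3 that fell were IFI44 (-0.42), BST2 (-0.34) and OAS1 (-0.34). IRF1 rose by 0.30 and IRF9 by 0.32, whereas STAT2 and IRF7 differed by 0.079 and 0.16 and were not called. Markers of duct epithelium fell in the same comparison, 8 of 8 tested, from 3160 to 3540 FPKM summed with residual medium to 1570 to 1830 after PANC-1 EV. Markers of mesenchyme summed to 103 to 122 FPKM with residual medium, 94.4 to 106 after PANC-1 EV and 132 to 152 after PPCL-68 EV. The part of either list in the result was not tested.

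PPCL-68 EV lowered 16 of the 37 genes in HPDE relative to residual medium and raised 4, with 17 not called, where 36.4% of all genes tested were called lower, 31.3% higher and 67.7% either way. The median of the 37 was -0.10 and that of all genes -0.032, so the count of lower genes was near the background. BST2, which sits at chr19:17513748-17516457 in hg19, minus strand, had 272, 286 and 275 FPKM after PPCL-68 EV, 586, 562 and 569.5 with residual medium and 418, 465 and 474 after PANC-1 EV. The groups did not overlap, and the difference from residual medium was -1.04 (SE 0.057, adjusted p = 1.01e-09). OAS1, a sensor of double-stranded RNA (chr12:113344582-113369990 in hg19, plus strand), had 55.7, 57.8 and 60.6 FPKM after PPCL-68 EV and 129, 120.3 and 105 with residual medium, a difference of -1.01 (SE 0.078, adjusted p = 4.3e-08). All PPCL-68 EV libraries were low for it. IFIT1, whose libraries are given above, differed by -0.97 (SE 0.081, adjusted p = 9.06e-08). Further falls were those of IFI44 (-0.74), SAMD9 (-0.62), the ISG15 protease USP18 (-0.57), IFI35 (-0.55) and OASL (-0.51). The 4 that rose were DDX60, ISG15 (0.37), RSAD2 (0.26) and IFITM1 (0.25). RSAD2 and IFITM1 were not called with no filter on low values or without residual medium library 3, which left 2 higher genes. Duct markers fell here too, in 6 of 8 tested, to 1450 to 1470 FPKM summed, which was not tested as a part of the result. The EV comparisons share the residual medium libraries, so their values are given side by side and are not independent.

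Of the 4 most abundant genes, IFI6, ISG15 and IFITM3 were not called between the EV. IFI6 had 1499 ± 189 FPKM after PANC-1 EV, 1489.7 ± 171 after PPCL-68 EV, 1449 ± 156 with residual medium and 1113 ± 70.2 untreated (SD, n = 3 here and below). ISG15, the modifier that HERC5 attaches and USP18 removes, had 1643 ± 167 and 1499 ± 78.2 FPKM after the 2 EV, 1159 ± 115 with residual medium and 841 ± 69.8 untreated. It rose at each step from untreated cells to residual medium and to either EV, and its EV groups did not differ at the threshold. IFITM3, which blocks virus entry from endosomes, had 988 ± 66.6 and 914 ± 45.9 FPKM after the EV and 883 ± 69.3 with residual medium. USP18 had 81.8 ± 3.89, 42.4 ± 2.84 and 63.5 ± 3.03 FPKM in the same order, so that it lay above residual medium after one EV and below it after the other. RSAD2 rose with both, from 67.9 ± 10.02 FPKM to 126 ± 8.41 after PANC-1 EV and 81.2 ± 2.36 after PPCL-68 EV. Among the factors that bind ISRE, STAT2 had 62.2 ± 3.35 FPKM after PANC-1 EV, 46.2 ± 2.20 after PPCL-68 EV and 58.8 ± 1.195 with residual medium, and IRF9 was low throughout at 4.23 ± 0.726, 3.37 ± 0.499 and 3.17 ± 0.110. GBP1 had 42.3 ± 3.99, 26.6 ± 0.918 and 32.0 ± 1.13 FPKM in that order, and GBP2 was the lowest of the 37 in HPDE, at 0.752 to 1.86 FPKM over the 12 libraries.

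**Figure D3:**
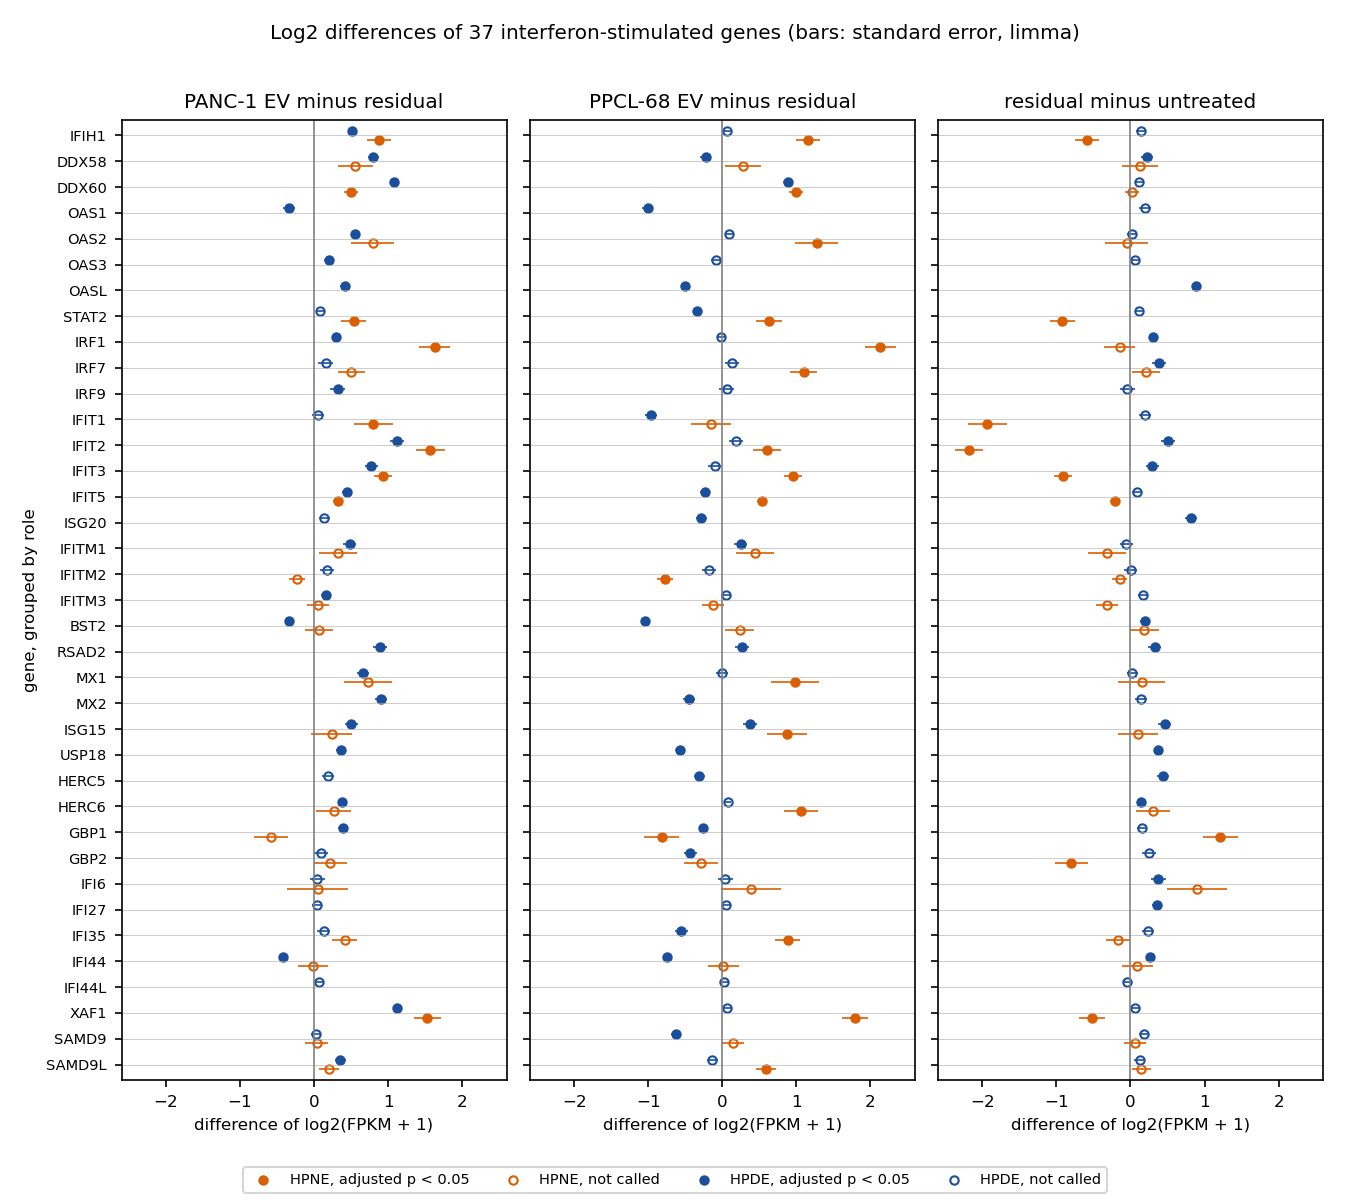
Differences in log2(FPKM + 1) (horizontal axes) for the 37 genes (vertical axis, grouped by role) in 3 comparisons, HPNE in orange and HPDE in blue, with bars for the standard error and filled points where the adjusted p was under 0.05. Genes not tested in HPNE have no orange point; IRF1 stands farthest right in HPNE with either EV, and IFIT1 and IFIT2 farthest left with residual medium.

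Residual medium alone already moved these genes in HPDE. Relative to untreated cells 16 of the 37 were higher and none lower, against 9.93% and 10.1% of all genes tested (20.0% either way), and the medians were 0.19 and -0.0094. Largest were OASL, an OAS-like protein that aids RIG-I (0.88), the exonuclease ISG20 (0.82), IFIT2 (0.51), ISG15 (0.46) and HERC5, the ligase that attaches ISG15 (0.44). OASL had 51.6, 49.5 and 45.5 FPKM untreated, 95.8, 92.3 and 84.9 with residual medium, 114, 126 and 125 after PANC-1 EV and 64.1, 65.1 and 62.1 after PPCL-68 EV. None of these groups overlapped, untreated cells being lowest and PANC-1 EV highest. The number of genes called fell to 9 without untreated library 3 and to 9 with no filter on low values, all higher. Against untreated cells, PANC-1 EV gave 32 higher and 2 lower of 37 (26.3% and 34.4% of all genes, 60.6% either way). Those 2, IFI44 and BST2, were not called with size factors or with no filter on low values. PPCL-68 EV gave 13 higher and 9 lower (30.1% and 36.1%, 66.3% either way).

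In HPNE 26 of the 37 genes could be tested, OAS2 only through its EV groups. Relative to residual medium, EV of either source raised a subset that included IRF1 and XAF1. PANC-1 EV raised 9 relative to residual medium and lowered none, where 13.9% of the 11503 genes tested were called higher, 10.3% lower and 24.2% either way. PPCL-68 EV raised 15 and lowered 2, against 20.3%, 19.7% and 39.9%. By role, PPCL-68 EV raised 3 of the 4 sensors tested, all 3 transcription factors tested, 3 of the 4 IFIT genes and both genes of the ISG15 system tested, and PANC-1 EV raised 2, 2, 4 and 0 of these. Of the 5 membrane and virion effectors tested 1 rose and 1 fell after PPCL-68 EV and none was called after PANC-1 EV, and of the 2 guanylate-binding proteins 1 fell after PPCL-68 EV. Of the 6 other genes 3 rose after PPCL-68 EV and 1 after PANC-1 EV. The medians of the 26 were 0.37 and 0.60, and those of all genes were 0.020 and 0.0026. Without the 4 libraries that lay apart, PANC-1 EV raised 20 and lowered 2, and PPCL-68 EV raised 18 and lowered 3. Calls over all 11503 genes rose as well, to 3240 higher and 3539 lower after PANC-1 EV and 3249 and 4286 after PPCL-68 EV. Leaving out PANC-1 EV library 1 alone gave 15 genes called after PANC-1 EV. Relative to untreated cells, residual medium lowered IFIT1, IFIT2, IFIT3, IFIT5, IFIH1, STAT2 and XAF1, all among the genes that PANC-1 EV raised over it. PPCL-68 EV raised the same genes except IFIT1. These comparisons share the residual medium libraries. Against untreated cells, PANC-1 EV raised IRF1, IRF7, XAF1 and DDX60 and lowered IFIT1, IFIT2 and IFITM2. STAT2 had 61.5 ± 10.8 FPKM untreated, 32.3 ± 7.49 with residual medium, 46.6 ± 5.19 after PANC-1 EV and 49.9 ± 7.05 after PPCL-68 EV (SD, n = 3). It differed from untreated cells by -0.38 and -0.29 after the EV, neither called. Without the 4 libraries it was called lower than untreated after both (-0.61 and -0.53). Summed mesenchyme markers were 9643 to 13700 FPKM with residual medium, 11280 to 13850 after PANC-1 EV and 9470 to 10850 after PPCL-68 EV, and their part in the result was not tested.

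IRF1, a transcription factor induced by interferon gamma and by inflammatory signals (chr5:131817301-131826490 in hg19, minus strand), differed most from residual medium after either EV with all libraries kept. Its level was 38.1, 30.1 and 31.5 FPKM after PANC-1 EV, 62.4, 42.4 and 40.1 after PPCL-68 EV, 7.82, 8.81 and 14.4 with residual medium and 11.9, 11.8 and 9.88 untreated. Every EV library lay above every control library. The differences from residual medium were 1.63 (SE 0.21, adjusted p = 0.000734) after PANC-1 EV and 2.13 (SE 0.21, adjusted p = 5.99e-05) after PPCL-68 EV, or 1.77 and 2.18 without the 4 libraries. XAF1 had 19.7, 23.9 and 29.9 FPKM after PANC-1 EV, 26.5, 32.8 and 28.5 after PPCL-68 EV, 6.31, 7.47 and 9.64 with residual medium and 12.5, 12.9 and 9.34 untreated. It too was higher in all EV libraries than in all control libraries, by 1.53 (SE 0.18, adjusted p = 0.000442) and 1.79 (SE 0.18, adjusted p = 5.99e-05) relative to residual medium, or 1.82 and 2.00 without the 4 libraries. The EV sources themselves did not differ for either gene at the threshold, with differences of -0.51 (SE 0.21, adjusted p = 0.18) for IRF1 and -0.26 (SE 0.18, adjusted p = 0.414) for XAF1.

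Other sensors and factors rose after PPCL-68 EV in HPNE. IFIH1, the MDA5 sensor of long double-stranded RNA (chr2:163123589-163175213 in hg19, minus strand), had 7.03, 7.66 and 6.08 FPKM after PPCL-68 EV and 2.28, 2.22 and 3.22 with residual medium, a difference of 1.16 (SE 0.16, adjusted p = 0.000446). The groups were well separated, and PANC-1 EV also raised it, by 0.88. IRF7, which drives interferon alpha genes (chr11:612553-615999 in hg19, minus strand), had 7.01, 9.01 and 8.90 against 3.94, 2.90 and 3.21 FPKM, a difference of 1.10 (SE 0.19, adjusted p = 0.00122). HERC6, a relative of the ISG15 ligase (chr4:89299891-89364263 in hg19, plus strand), had 6.49, 8.46 and 8.45 against 3.77, 3.37 and 2.53 FPKM, a difference of 1.06 (SE 0.23, adjusted p = 0.00496). For both, all 3 libraries after PPCL-68 EV were above all 3 with residual medium. OAS2 (chr12:113416200-113449528 in hg19, plus strand) was low throughout, at 1.21, 3.97 and 3.03 FPKM after PPCL-68 EV and 0.605, 0.440 and 0.354 with residual medium, and differed by 1.27 (SE 0.29, adjusted p = 0.00596). Without the 4 libraries these differences were 1.27, 1.18, 1.05 and 1.56. OAS2 averaged 0.517 FPKM untreated and 0.467 with residual medium, against 1.63 after PANC-1 EV and 2.73 after PPCL-68 EV. It passed the filter only through the EV groups, so its tests between EV and controls are not independent of the filter. DDX60 rose with both EV, by 0.50 and 1.00, and was higher after PPCL-68 EV, the sources differing by -0.49 (SE 0.093, adjusted p = 0.0152). That call ended in 4 of 19 alternatives.

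Relative to residual medium, PPCL-68 EV lowered IFITM2, which hinders virus entry (-0.77), and GBP1 (-0.82) in HPNE. Against untreated cells IFITM2 was lower too (-0.92). GBP1, which residual medium raised, differed from untreated cells by 0.40 after PPCL-68 EV (not called), or 0.77 (called higher) without the 4 libraries. OAS1 was below the filter for testing in HPNE, and its libraries split within groups: 0.148, 0.897 and 0.869 FPKM after PANC-1 EV and 0.159, 1.38 and 1.35 after PPCL-68 EV, against 0.164, 0.137 and 0.0992 with residual medium. Library 1 of each EV group, which lay apart over all genes, was the low one. MX1 and ISG15 showed the same low library 1, with 2.74, 5.03 and 8.01 and 42.2, 89.4 and 98.4 FPKM in the PANC-1 EV libraries. PANC-1 EV and PPCL-68 EV differed for 3 of the 26 genes, against 5.47% of all genes: IFIT2 (0.96) and IFITM2 (0.54) were higher after PANC-1 EV and DDX60 was lower. Without the 4 libraries 6 were higher and 9 lower, where 2597 of all 11503 genes were higher and 1588 lower. Leaving out single libraries gave 0 to 7 genes.

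**Figure D4:**
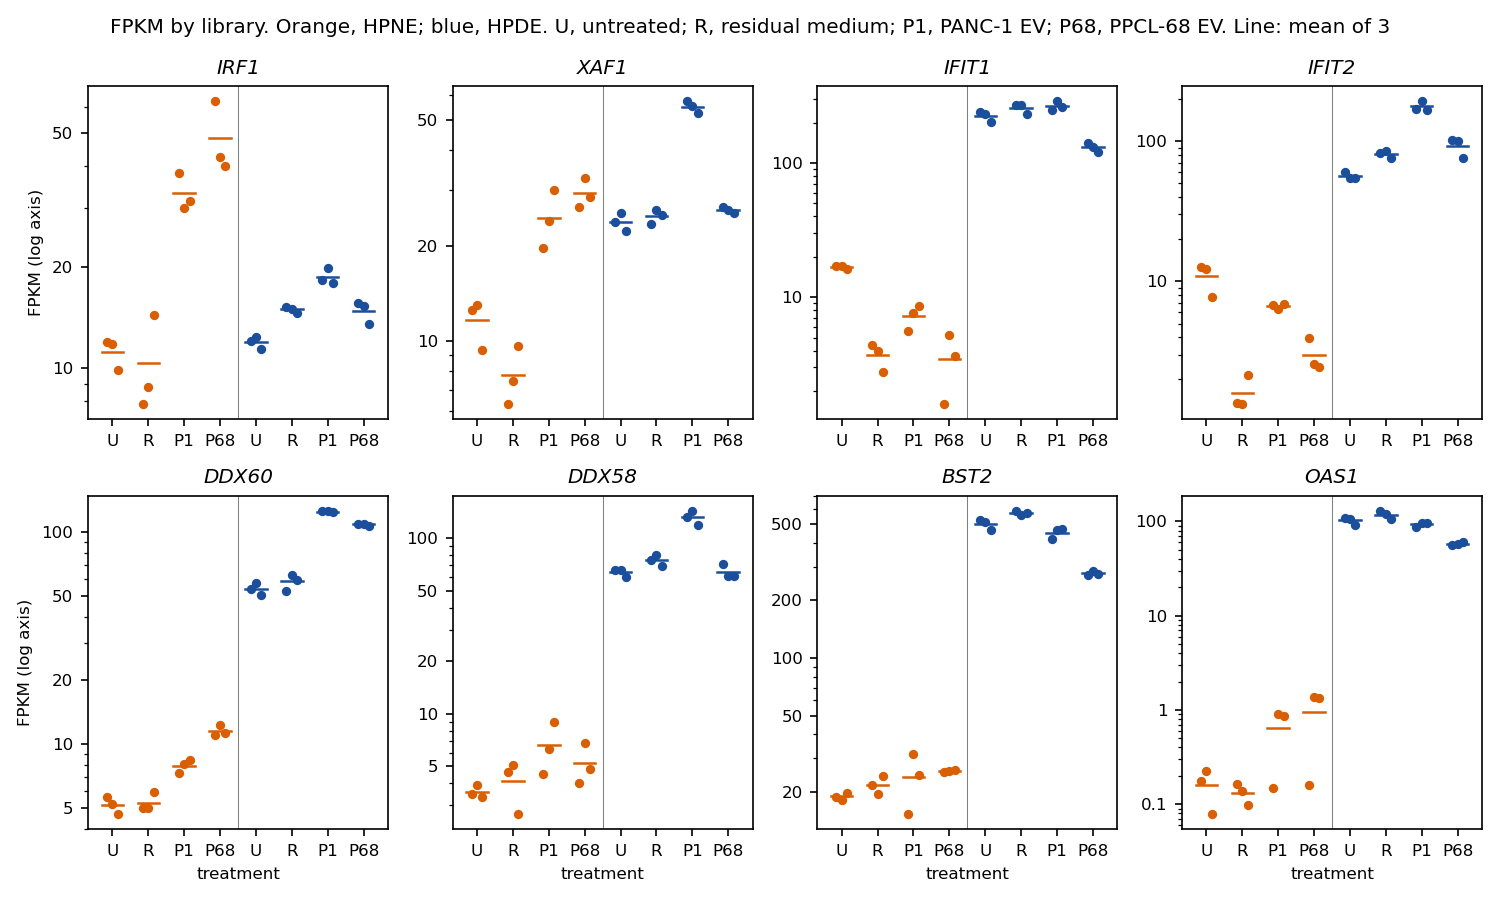
FPKM of 8 genes in each library (points, log axis) with the mean of 3 (line), HPNE in orange and HPDE in blue, for untreated cells (U), residual medium (R), PANC-1 EV (P1) and PPCL-68 EV (P68). IRF1 and XAF1 rise with both EV in HPNE, IFIT1 and IFIT2 drop from untreated to residual medium in HPNE, and BST2 and OAS1 are lowest after PPCL-68 EV in HPDE.

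All 4 IFIT genes of the set fell with residual medium in HPNE. Relative to untreated cells 8 of the 26 genes fell (IFIT1, IFIT2, IFIT3, IFIT5, IFIH1, STAT2, XAF1 and GBP2) and GBP1 rose, where 25.2% of all genes tested were called lower, 18.7% higher and 43.9% either way. The median of the 26 was -0.096 and that of all genes -0.048, which size factors turned to 0.063. The count of lower genes was thus near the background, and 4 of the 8 lower calls held under every alternative. IFIT2 had 12.7, 12.3 and 7.74 FPKM untreated, 1.35, 1.33 and 2.14 with residual medium, 6.76, 6.38 and 6.92 after PANC-1 EV and 3.94, 2.58 and 2.44 after PPCL-68 EV. Untreated libraries were highest and residual medium lowest, with a difference between them of -2.18 (SE 0.19, adjusted p = 3.57e-05). PANC-1 EV lay between, 1.57 (SE 0.19, adjusted p = 0.000561) above residual medium and -0.61 relative to untreated cells. IFIT1 had 17.1, 17.0 and 16.3 FPKM untreated, 4.42, 3.99 and 2.78 with residual medium, 5.55, 7.61 and 8.58 after PANC-1 EV and 1.59, 5.19 and 3.65 after PPCL-68 EV. All 9 libraries given residual medium or EV lay below all untreated ones, the difference of residual medium from untreated being -1.93 (SE 0.27, adjusted p = 0.000462). The rise of IFIT1 after PANC-1 EV over residual medium (0.80, adjusted p = 0.0484) passed in 6 of 19 alternatives. Without the 4 libraries, residual medium and untreated cells differed by -2.53 for IFIT2 and -1.80 for IFIT1.

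IFIT3, which stabilises IFIT1, had 31.7, 31.4 and 23.4 FPKM untreated, 14.7, 14.9 and 14.4 with residual medium, 27.6, 28.2 and 30.9 after PANC-1 EV and 28.3, 33.8 and 26.4 after PPCL-68 EV. The residual medium libraries stood below the rest, and the EV differed from untreated cells by 0.014 and 0.037, neither called. GBP1, a GTPase that attacks pathogen vacuoles (chr1:89518002-89531043 in hg19, minus strand), ran the other way, with 5.66, 5.71 and 9.11 FPKM untreated and 17.6, 18.6 and 14.4 with residual medium, a difference of 1.21 (SE 0.23, adjusted p = 0.00258). Without the 4 libraries that difference was 1.51. In all, 17 genes were called without the 4 libraries, 13 lower and 4 higher, where 4166 of all 11503 genes were lower and 4077 higher. Leaving out untreated library 1 or residual medium library 2 gave 5. Markers of mesenchyme moved in the same comparison, with 3 lower and 1 higher of 7 and a median of -0.67, and summed to 13320 to 14930 FPKM in untreated cells. Their part in the result was not tested. Set against untreated cells, PANC-1 EV gave 4 higher and 3 lower of 26 (9.61% and 11.5% of all genes, 21.1% either way) and PPCL-68 EV 13 higher and 5 lower (18.7% and 23.8%, 42.5% either way). Highest after PPCL-68 EV relative to untreated cells were IRF1 (1.99), HERC6 (1.36), IRF7 (1.30), IFI6 (1.28), XAF1 (1.27), OAS2 (1.22, tested only through its EV groups) and MX1 (1.13). IFIT1 (-2.08), IFIT2 (-1.57), GBP2 (-1.08), IFITM2 (-0.92) and IFITM3 (-0.44) were the lower ones. With the 4 libraries left out PANC-1 EV gave 15 higher and 6 lower and PPCL-68 EV 17 higher and 6 lower. Over all 11503 genes these counts were 3370 and 3839 for PANC-1 EV and 3553 and 4445 for PPCL-68 EV. Mesenchyme markers in the PPCL-68 EV comparison had 5 lower and 1 higher of 7 (median -1.38), and 1 higher in that of PANC-1 EV (median -0.59).

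Whether the lines answered differently was tested as an interaction contrast, the difference in HPDE minus that in HPNE. For PPCL-68 EV against residual medium, 16 of the 26 genes that passed the filter in HPNE had a lower value in HPDE and 1 a higher one (IFITM2), where 13.6% and 12.1% of all 12377 genes tested were called lower and higher (25.7% either way). The gap was -2.15 (SE 0.23, adjusted p = 1.35e-06) for IRF1, -1.73 (SE 0.19, adjusted p = 2.36e-06) for XAF1 and -1.43 (SE 0.19, adjusted p = 2.04e-05) for IFI35. IRF1 had risen in HPNE while its HPDE levels after PPCL-68 EV, 15.6, 15.3 and 13.5 FPKM, overlapped those with residual medium, 15.2, 15.1 and 14.6. For PANC-1 EV 2 of the 26 were called higher and 1 lower, against 8.65% and 12.5% (21.2% either way). IRF1 was the lower one, at -1.33 (SE 0.23, adjusted p = 0.000428), and GBP1 (0.97) and DDX60 (0.58) the higher ones. Without the 4 HPNE libraries the IRF1 gaps were -1.47 after PANC-1 EV and -2.20 after PPCL-68 EV. PANC-1 EV then gave 3 higher and 11 lower calls among the 26, and PPCL-68 EV gave 2 and 19.

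For residual medium against untreated cells, 9 of the 26 had a higher value in HPDE and 1 a lower one, against 21.0% and 17.1% of all genes (38.1% either way). The largest gaps were 2.69 (SE 0.23, adjusted p = 8.26e-08) for IFIT2 and 2.13 (SE 0.30, adjusted p = 3.18e-05) for IFIT1. They fell in HPNE, and in HPDE the differences were 0.51 and 0.20, the latter not called. GBP1 was the lower one, at -1.06 (SE 0.26, adjusted p = 0.00379). Leaving out the 4 libraries gave 14 higher and 3 lower, where 3774 of all 12377 genes were higher and 3964 lower. The 11 genes under the filter in HPNE are left out of these counts, while the shares of all genes in each interaction contrast include such genes. OAS2, which passed that filter only through its EV groups, is kept in them.

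Other genes of the pathway were taken from lists that hold no gene of the 37. Of 21 interferon genes only IFNB1, which encodes interferon beta, passed the filter, and only in HPDE. Its level was 1.84 ± 0.214 FPKM after PANC-1 EV, 0.547 ± 0.226 after PPCL-68 EV, 1.25 ± 0.493 with residual medium and 0.658 ± 0.262 untreated (SD, n = 3), from 9 to 59 reads per library. It was higher after PANC-1 EV than after PPCL-68 EV, by 0.88 (SE 0.16, adjusted p = 0.000394), and PPCL-68 EV and residual medium differed by -0.53 (SE 0.16, adjusted p = 0.00889), PPCL-68 EV being lower. PANC-1 EV and residual medium differed by 0.35 (SE 0.16, adjusted p = 0.0655). With a mean of 1.07 FPKM over HPDE, IFNB1 passed the filter only through its PANC-1 EV and residual medium groups. Tests of these groups against the lower ones are therefore not independent of the filter. IFNL1, an interferon of epithelia, was under the filter, at 1.40 ± 0.705 FPKM after PANC-1 EV, 0.363 ± 0.295 after PPCL-68 EV and 1.03 ± 0.303 with residual medium. In HPNE, IFNB1 had at most 3 reads and IFNL1 0 reads in any library, and 0 reads allow up to 3. The interferon lambda receptor IFNLR1 had 5.51 ± 0.801 FPKM in untreated HPDE and at most 6 reads in any HPNE library.

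Of 9 receptor and kinase genes, 4 rose and 2 fell after PANC-1 EV in HPDE, and 3 rose and 2 fell after PPCL-68 EV, where 63.3% and 67.7% of all genes were called. The same shares are the background for the adaptors and negative regulators. JAK1, a kinase of all interferon receptors, rose with both, by 0.76 (SE 0.043, adjusted p = 2.41e-09) and 0.86 (SE 0.043, adjusted p = 4.05e-10), and TYK2 differed by -0.10 (not called) and -0.22. IFNAR1 and IFNAR2, the receptor of interferon alpha and beta, differed from residual medium by -0.16 and -0.086 after PANC-1 EV, IFNAR1 alone being called. Of 11 sensing adaptors, kinases and factors tested in HPDE, 4 rose and 4 fell after PANC-1 EV and 3 rose and 5 fell after PPCL-68 EV. IRF3 and MAVS, which carry signals from sensors to interferon genes, differed by -0.37 and -0.34 after PANC-1 EV, both falls. Of 7 negative regulators 3 rose and 2 fell after PANC-1 EV and 4 rose and 2 fell after PPCL-68 EV.

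A list of 35 further interferon-stimulated genes was written with earlier results of these data known, so its direction is no independent evidence. In HPDE 28 of 33 tested were higher after PANC-1 EV than after PPCL-68 EV and none was lower; 20 rose and 4 fell after PANC-1 EV against residual medium, and 3 rose and 22 fell after PPCL-68 EV. Over all genes 28.2% were higher and 35.1% lower after PANC-1 EV, 31.3% and 36.4% after PPCL-68 EV, and 25.2% and 24.9% between the EV. CXCL10, a chemokine that attracts T cells, had 88.7 ± 15.6 FPKM after PANC-1 EV, 15.9 ± 2.25 after PPCL-68 EV and 19.9 ± 2.72 with residual medium, and the sources differed by 2.40 (SE 0.12, adjusted p = 3.93e-09). In HPNE it had at most 11 reads. GBP3 rose after PANC-1 EV in HPDE by 1.14. In HPNE 14 of 27 rose after PANC-1 EV, 15 rose and 4 fell after PPCL-68 EV, and 1 rose and 12 fell with residual medium relative to untreated cells. The shares of all genes there were 13.9% higher, 20.3% higher and 19.7% lower, and 18.7% higher and 25.2% lower. PARP14 and PLSCR1 were among those that PPCL-68 EV raised there, by 1.09 and 1.11.

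Some of these levels are less certain than others. The library kit kept no strand, and 14 of the 37 genes overlap another annotated gene. IFIT1, IFIT2 and IFIT3 lie within the span of LIPA on the opposite strand, and RSAD2 overlaps CMPK2 on the opposite strand. IFITM1 and IFITM2 overlap on the same strand, as do IRF9 and an RNF31 entry, GBP2 and GBP7, and IFITM3 and lincRNA genes. LIPA had 34.1 FPKM in HPNE and 39.95 in HPDE on average, while IFIT1 had 7.82 and 220.7. The IFITM and IFIT families and USP18 have related copies, to differing degrees of likeness. How reads shared between copies or between overlapping genes were assigned is not given in the sources used here.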

How the data were processed

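RNA was measured in 24 libraries prepared with a kit that keeps no strand, per the labels' protocols. The deposited values are FPKM per gene, made by the authors, with each gene's length (another deposited column) and hg19 coordinates. CASAVA, STAR, HTSeq, DESeq2 and hg19 are named in the submitters' processing notes. Versions and settings are not given in the sources used here. All FPKM values (100% within 0.01) were whole multiples of 1 read, so reads per gene were recovered.

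FPKM were compared on the log2(FPKM + 1) scale with limma 3.58.1 in R 4.3.3 (with a trend), with a two-sided test, Benjamini-Hochberg adjustment over all genes tested and a threshold of 0.05. The pseudocount of 1 understates the change of low genes. Genes needed a mean of 1 FPKM over the libraries fitted: 12 of a line (8 residual degrees of freedom) or all 24 (16) for comparisons between lines. A p-value measures the spread between these libraries, since the labels do not say what separates triplicates. Silent meant at most 3 reads in each of a line's 12 libraries. On simulated HPNE and HPDE data for PANC-1 EV against residual medium, 86.5% and 98.0% of 200 genes changed 2-fold were recovered among 11465 and 12242 genes tested, with 10 and 11 unchanged genes called. The changed genes had a mean of at least 2 FPKM, and noise was independent between genes. No simulated library lay apart over all genes, and far fewer genes changed than were called in the data. The rates hold for that setting only.

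Members and pathway lists were chosen with earlier results of these data known. All members may be named. Libraries are given one by one for genes called with a log2 difference of at least 1 between EV and residual medium or between residual medium and untreated cells, at most 6 each way, and pathway genes by the same size. MX2, DDX58, OASL and IFIT3, and the HPNE libraries of OAS1, MX1 and ISG15, were added after their values were seen. Promoters came from RefSeq (GRCh38.p14), matched by symbol, synonym or Ensembl ID. Alternatives were a pseudocount of 0.1, no filter, size factors, the replicate number as a block, limma voom on the recovered reads, only the 6 libraries compared, HPNE without 4 libraries, and each library left out. In HPNE, same-numbered PANC-1 EV and PPCL-68 EV libraries correlated in their deviations from the group means (r of 0.565, 0.292 and 0.50), which pairs them by the data and not by the labels. The other 11 pairs of groups did not meet this in every library.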

Additional observations from a re-analysis of the deposited data

Results flagged for a closer look

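For 14 gene and comparison pairs, among the 26 genes that passed the filter in HPNE, the responses of the lines lay at least 1 log2 unit apart, as tested by the interaction contrast of limma on log2(FPKM + 1) with Benjamini-Hochberg adjustment. Values are the difference in HPDE minus that in HPNE. For PANC-1 EV against residual medium there was 1 such gene, IRF1 (-1.33, SE 0.23, adjusted p = 0.000428).

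For PPCL-68 EV against residual medium there were 7, all lower in HPDE: IRF1 (-2.15), XAF1 (-1.73), IFI35 (-1.43), BST2 (-1.28), OAS2 (-1.18), IFIH1 (-1.09) and IFIT3 (-1.05). Their adjusted p ran from 1.35e-06 for IRF1 to 0.00852 for OAS2. OAS2 passed the filter in HPNE only through its EV groups, so its test is not independent of the filter.

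For residual medium against untreated cells there were 6. IFIT2 (2.69), IFIT1 (2.13), IFIT3 (1.21), GBP2 (1.05) and STAT2 (1.03) were higher in HPDE and GBP1 (-1.06) lower. Their adjusted p ran from 8.26e-08 for IFIT2 to 0.00379 for GBP1.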

How the results depend on the processing

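Without the 4 HPNE libraries that lay apart, the number of the 26 genes called in HPNE was 22 for PANC-1 EV against residual medium, 17 for residual medium against untreated cells, 21 for PANC-1 EV against untreated cells and 15 between the EV. Of all 11503 genes, 6779, 8243, 7209 and 4185 were called in that order. The line difference for PANC-1 EV against residual medium was called for 18 of all 37 genes, which include those under the filter in HPNE. Among the 26 that passed it, 3 were higher and 11 lower. Of all 12377 genes 5812 were called. With no filter on low values 9 genes were called for residual medium against untreated cells in HPDE. The line difference for PANC-1 EV against residual medium changed sign for MX2, to -0.025 with a pseudocount of 0.1 and -0.25 with voom on recovered reads, and for RSAD2, to -0.24 with voom; the cause was not tested.

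Leaving out 1 library at a time gave 7 to 15 genes for PANC-1 EV against residual medium in HPNE (15 without PANC-1 EV library 1), 5 to 12 for residual medium against untreated cells (5 without untreated 1 or residual medium 2), 4 to 16 for PANC-1 EV against untreated cells (16 without PANC-1 EV 1, 4 without PANC-1 EV 2, PANC-1 EV 3 or untreated 1) and 0 to 7 between the EV (0 without PANC-1 EV 2 or PPCL-68 EV 3, 1 without PANC-1 EV 1 or PPCL-68 EV 2, and 7 without residual medium 3). In HPDE residual medium against untreated cells gave 9 to 19, the lowest without untreated 3. The line difference for PANC-1 EV against residual medium gave 6 to 12 (11 without PANC-1 EV 1 and 12 without residual medium 3, both HPNE). That count is over all 37 genes, including those under the filter in HPNE. Counts with 1 library left out are given without a share of all genes. The other 10 counts stayed within 1.5 times their value under every alternative run.

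Same-numbered libraries did not all deviate together in 11 of the 12 pairs of groups (r from -0.513 to 0.565 in HPNE and from -0.246 to 0.15 in HPDE), and so share only a number. The exception was HPNE PANC-1 EV and PPCL-68 EV, where r was 0.565, 0.292 and 0.50, and there the block kept the same 3 calls. With the replicate number as a block, HPNE counts were 7 for PANC-1 EV and 17 for PPCL-68 EV against residual medium and 9 for residual medium against untreated cells; HPDE counts were 25, 21 and 14. Voom on recovered reads called 9 and 17 genes for these EV comparisons in HPNE and 26 and 21 in HPDE, with 2927, 4603, 7834 and 8332 of all genes. Of the genes called in HPDE between the EV, 29 of 31 were called under every alternative, against 7 of 9 for PANC-1 EV and 11 of the 15 higher for PPCL-68 EV against residual medium in HPNE. Depth limits RSAD2 (0 to 10 reads in HPNE) and IFNB1 (9 to 59 reads in HPDE).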
